A study of Mus musculus with 18 samples.

Results

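The ErbB system of the heart was followed through 9 of the 19197 genes measured: the ligands Hbegf, Ereg, Areg, Btc and Nrg1 and the receptors Egfr, Erbb2, Erbb3 and Erbb4, taken by their symbols, by a rule that uses no measured value. The RNA came from the cardiac apex of C57BL/6 mice, an inbred laboratory strain, 1 day after the operation, in a study of DCA signalling through the bile acid receptor TGR5 in myocardial infarction (MI). The 18 libraries form 3 groups of 6: infarcted hearts that received 10 mg/kg of DCA each day (MI_DCA), infarcted hearts given vehicle (MI_vehicle) and sham-operated hearts given vehicle (sham_vehicle). The labels do not spell out DCA, which is taken here as deoxycholic acid, and there was no sham group given DCA. No group carries a transgene or a deleted gene. The age and sex of the mice, how the infarct was made, the vehicle and the route of dosing are not stated in the labels. Separate mice per library are not stated either, and p-values then measure the spread among these libraries, which may be technical.

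EGF-type ligands are made as membrane-anchored precursors that ADAM proteases cut free. Hbegf, Areg, Ereg and Btc encode ligands of EGFR, and several of them also bind ErbB4, whereas Nrg1 encodes neuregulin 1, the ligand of ErbB3 and ErbB4. ErbB2 binds no known ligand and works as the preferred partner of the other receptors, and ErbB3 has little kinase activity of its own. In the heart, endothelial neuregulin acts on ErbB4 and ErbB2 of cardiomyocytes, and loss of ErbB2 signalling leads to cardiomyopathy. Active receptors feed the RAS-ERK and PI3K-AKT cascades, which in turn induce immediate early genes and feedback inhibitors.

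Values are FPKM, which scale reads by transcript length and library size, so that levels of different genes are on 1 scale. Transcripts were captured by probes, whose yield may differ between genes and was not tested, so orders and shares of genes below are of captured FPKM. The spacing of low values put the depth at 10300000 to 13000000 reads in MI_DCA, 11200000 to 14000000 in MI_vehicle and 9600000 to 10700000 in sham_vehicle. Cardiomyocyte markers marked all libraries as heart: the 15 markers summed to 33723 to 57519 FPKM in MI_DCA, 34267 to 51985 FPKM in MI_vehicle and 54097 to 59815 FPKM in sham_vehicle libraries. Nppa and Nppb, the natriuretic peptide genes induced by wall stress, were both under 1000 FPKM in 4 of the 12 libraries of infarcted hearts, MI_DCA replicates 1, 3 and 5 and MI_vehicle replicate 4. In these, Nppb was 299, 144, 167 and 324 FPKM, against 75.0 to 277 FPKM in the sham libraries and 1102 to 3500 FPKM in the other 8 libraries of infarcted hearts. These 4 libraries are kept in all tests below, and values without them are given where they matter. They were picked by a measured level after it was seen, so those values are descriptions.

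Ereg, Areg and Btc lie next to each other on chromosome 5 in RefSeq's GRCm38.p6 annotation: Ereg (NCBI gene 13874) at chr5:91074617-91093649, Areg (11839) at chr5:91139599-91148432 and Btc (12223) at chr5:91357261-91402994, with Epgn, the epigen gene, on the other side of Ereg at chr5:91027517-91035212. Egfr (13649) at chr11:16752203-16913907 and Erbb2 (13866) at chr11:98412484-98437716 share a chromosome, while Erbb3 (13867) is at chr10:128567523-128589635 and Erbb4 (13869) at chr1:68031884-69108576. The 250 bases before the annotated start were available for 5 of the 9 genes. Areg and Btc are printed because they are neighbours whose patterns differ below, and Erbb2 as the receptor with a called change in both infarcted groups. The Areg stretch is chr5:91139349-91139598 on the plus strand, the Btc stretch chr5:91402995-91403244 on the minus strand and the Erbb2 stretch chr11:98412234-98412483 on the plus strand. Each runs 5′ to 3′ towards the start, and capitals mark matches to the motifs searched.
Areg: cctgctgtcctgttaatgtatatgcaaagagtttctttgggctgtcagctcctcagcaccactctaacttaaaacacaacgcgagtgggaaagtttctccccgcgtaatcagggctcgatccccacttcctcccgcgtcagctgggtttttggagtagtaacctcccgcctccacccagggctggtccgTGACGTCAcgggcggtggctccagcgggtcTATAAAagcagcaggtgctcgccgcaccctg
Btc: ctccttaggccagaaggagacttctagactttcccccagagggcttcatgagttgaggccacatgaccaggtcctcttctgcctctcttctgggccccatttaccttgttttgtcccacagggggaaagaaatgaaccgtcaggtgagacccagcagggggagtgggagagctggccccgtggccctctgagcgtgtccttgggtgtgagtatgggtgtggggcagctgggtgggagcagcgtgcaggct
Erbb2: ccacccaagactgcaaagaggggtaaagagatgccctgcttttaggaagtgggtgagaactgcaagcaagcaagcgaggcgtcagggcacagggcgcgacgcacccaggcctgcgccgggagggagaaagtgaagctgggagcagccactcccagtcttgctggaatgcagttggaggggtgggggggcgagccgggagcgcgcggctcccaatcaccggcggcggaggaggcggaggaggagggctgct
The letters searched on both strands were TGACGTCA (the cAMP response element), TGACTCA (AP-1), TATAAA (the TATA box) and CACGTG (the E-box), none of which overlap in these stretches. Areg held TGACGTCA at bases 61 to 54 before the start, which 1.55% of 32851 promoters hold, and TATAAA at bases 31 to 26, which 12.4% hold. The Btc, Erbb2, Egfr and Erbb4 stretches held none of the 4 letter strings, and TGACTCA and CACGTG occur in 4.46% and 6.02% of all promoters. A match is a description of the letters and not a binding site.

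In sham hearts Hbegf was the highest of the 9 transcripts at 9.61 ± 0.70 FPKM, and Erbb2 was the highest of the receptors at 3.19 ± 0.11 FPKM (SD, n = 6 each). Egfr at 1.61 ± 0.27 FPKM and Erbb3 at 1.39 ± 0.19 FPKM followed, and their ranges in sham hearts overlapped. Erbb4 at 0.77 ± 0.14 FPKM, Btc at 0.62 ± 0.08 FPKM and Nrg1 at 0.35 ± 0.12 FPKM came next. Erbb4 and Btc overlapped in that order, while the lowest sham value of Btc, 0.51 FPKM, was just above the highest of Nrg1, 0.50 FPKM. Ereg and Areg were nearly silent in sham hearts, with highest values of 0.14 and 0.09 FPKM.

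**Figure D1:**
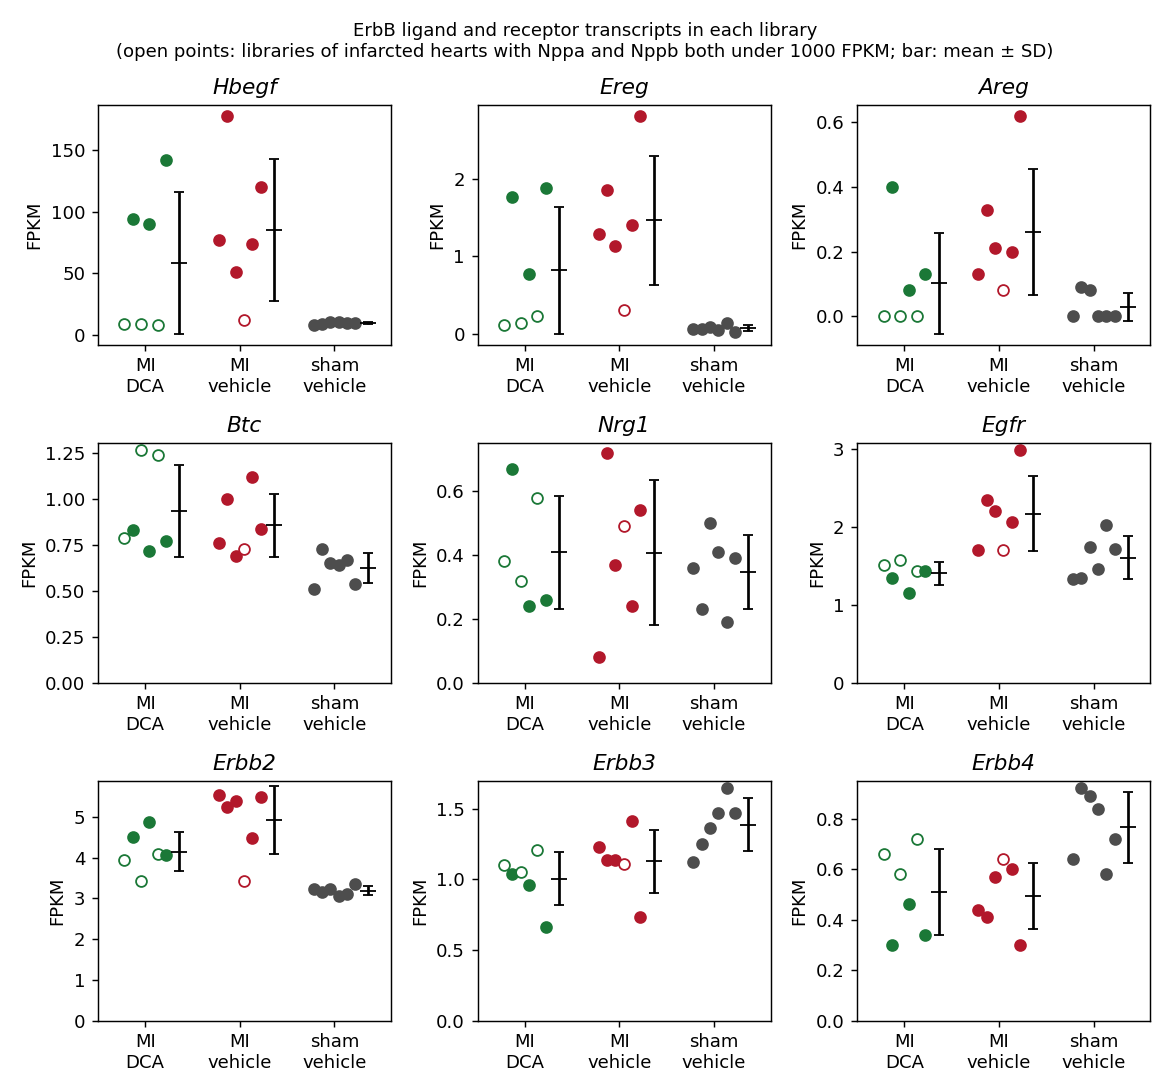
FPKM of the 9 transcripts in each library, in panels with their own linear axes; points are libraries, bars the mean ± SD of 6, and open points the 4 libraries of infarcted hearts with Nppa and Nppb both under 1000 FPKM. Hbegf and Ereg split the MI_DCA group into 3 high and 3 low libraries, while every Egfr value in MI_DCA lies under every value in MI_vehicle.

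Infarction against sham, both with vehicle, shows the ErbB transcripts 1 day after injury. On the log2(FPKM + 1) scale Hbegf and Ereg had the largest rises of the 9, the receptor Erbb2 rose, Erbb4 fell, and Nrg1 was not called. With the fit across 11969 genes, 58.4% of all genes were called (38.3% higher, 20.1% lower), so the 3 called of the 4 members in this fit, Hbegf, Erbb2 and Egfr, stand against a broad change of the transcriptome. The split of 4583 genes higher and 2408 lower became 3379 and 3430 with median-ratio scaling, and the called members then were Hbegf and Erbb2, higher, and Erbb3, lower. The other 5, Nrg1, Areg, Ereg, Btc and Erbb4, lay below the filter of 1 FPKM in at least 6 of 12 libraries and were compared one by one with a two-sided exact permutation test. In whole tissue, fewer cells of a type and less RNA per cell cannot be told apart. Markers of infiltrating cells differed too: 12 of 12 monocyte and macrophage markers and 8 of 8 tested neutrophil markers were called higher. Of 15 cardiomyocyte markers 12 were called lower and 1 higher. The monocyte and macrophage markers summed to 468 to 1161 FPKM in MI_vehicle and 237 to 400.4 FPKM in sham_vehicle, and the neutrophil markers to 175 to 489 FPKM and 51.2 to 125 FPKM in the same groups. Their part in the differences below was not tested.

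Hbegf encodes heparin-binding EGF-like growth factor, a ligand of EGFR and ErbB4 that binds heparan sulphate, and lies at chr18:36504927-36515805 (NCBI gene 15200). It had 77.05, 178, 51.4, 12.2, 73.6 and 120.0 FPKM in MI_vehicle replicates 1 to 6, against 8.47, 9.33, 10.4, 10.2, 9.39 and 9.86 FPKM in sham_vehicle replicates 1 to 6. All infarcted libraries were above all sham libraries, although MI_vehicle replicate 4 was only just so. The means were 85.3 ± 57.4 and 9.61 ± 0.70 FPKM in the 2 groups (SD, n = 6 each), 8.88-fold apart, and the log2 fold change on the log2(FPKM + 1) scale was 2.65 ± 0.46 (SE; limma adjusted p = 0.000499). Groups that do not overlap, with infarction higher, were seen for 16.1% of all tested genes.

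Ereg, the epiregulin gene, had the largest ratio of group means among Hbegf, Ereg, Btc and Nrg1. It had 1.29, 1.86, 1.13, 0.31, 1.4 and 2.81 FPKM in MI_vehicle replicates 1 to 6 and 0.07, 0.07, 0.09, 0.05, 0.14 and 0.03 FPKM in sham_vehicle replicates 1 to 6. The lowest infarcted library again was replicate 4 and still lay above every sham library. The ratio of the means was 19.6, the difference 1.13 on the log2(FPKM + 1) scale, and the exact permutation p was 0.00216, the smallest that 924 regroupings can give. With no filter on low values, limma gave it an adjusted p of 0.000931.

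Areg encodes amphiregulin, a ligand of EGFR, and lay at the edge of detection. It was listed at 0.13, 0.33, 0.21, 0.08, 0.20 and 0.62 FPKM in MI_vehicle replicates 1 to 6 and at 0, 0.09, 0.08, 0, 0 and 0 FPKM in sham_vehicle replicates 1 to 6. By the depth estimate this corresponds to about 1 to 10 reads per MI_vehicle library and 0 to 1 read per sham_vehicle library on a transcript of 1215 bases. Of the infarcted libraries, replicate 4 alone lay within the sham range, and the exact permutation p was 0.00649 for a difference of 0.28 on the log2(FPKM + 1) scale.

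Btc, the betacellulin gene, differed less than Ereg and Areg, which lie near it on chromosome 5. It had 0.69, 0.80 and 1.12 FPKM as the lowest, median and highest value in MI_vehicle libraries and 0.51, 0.65 and 0.73 FPKM in sham_vehicle libraries. The groups overlapped, and the exact permutation p of 0.00649 for a difference of 0.19 became 0.0584 with median-ratio scaling and 0.264 with quantile normalization. The median of all tested genes was itself 0.12 on the log2 scale in this comparison and about 0 with either of these scalings.

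Nrg1 (NCBI gene 211323), at chr8:31807452-32891609, showed no difference that the libraries could resolve. It had 0.08, 0.72, 0.37, 0.49, 0.24 and 0.54 FPKM in MI_vehicle replicates 1 to 6 and 0.36, 0.23, 0.50, 0.41, 0.19 and 0.39 FPKM in sham_vehicle replicates 1 to 6. The sham range lay inside the infarcted range, and the exact permutation p was 0.660. Of its 23 annotated transcripts, 20 were above 0 in some library, each at a small fraction of 1 FPKM, so the form of neuregulin made cannot be read from these values.

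Among the 6 other ligand genes of the family, Egf fell and Tgfa was higher. Egf, the gene of epidermal growth factor, averaged 0.89 ± 0.48 FPKM in MI_vehicle and 1.84 ± 0.46 FPKM in sham_vehicle (SD, n = 6 each), with a log2 fold change of -0.61 ± 0.16 (SE; limma adjusted p = 0.00554). Tgfa, which encodes transforming growth factor alpha, a ligand of EGFR, averaged 0.59 ± 0.22 and 0.24 ± 0.06 FPKM in MI_vehicle and sham_vehicle (exact permutation p = 0.00866, n = 6 each). Nrg2 averaged 0.48 ± 0.40 FPKM in MI_vehicle and 0.95 ± 0.34 FPKM in sham_vehicle (exact permutation p = 0.0455, n = 6 each). Nrg4 was not called (limma adjusted p = 0.619), and exact permutation p-values of Epgn and Nrg3 were 0.476 and 0.318. Nrg3 did not exceed 0.04 FPKM in any library.

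Summed over the 11 ligand genes, Hbegf made up a median of 92.6% of ligand FPKM in MI_vehicle (range 69.4 to 96.6%) and 64.5% in sham_vehicle (60.6 to 68.5%). The other 10 ligands together had medians of 5.84 FPKM in MI_vehicle and 5.49 FPKM in sham_vehicle, with overlapping ranges of 4.89 to 7.51 and 4.49 to 6.07 FPKM. Hbegf thus made up most of the difference in summed ligand FPKM.

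Erbb2 was the receptor with the firmest rise. It had 5.55, 5.24, 5.39, 3.42, 4.48 and 5.48 FPKM in MI_vehicle replicates 1 to 6 and 3.22, 3.15, 3.24, 3.05, 3.10 and 3.36 FPKM in sham_vehicle replicates 1 to 6. Replicate 4 of the infarcted group was just above the highest sham library, and the groups did not overlap, as was so with infarction higher for 16.1% of tested genes. The means differed 1.55-fold and the log2 fold change was 0.49 ± 0.10 (SE; limma adjusted p = 0.00100).

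Egfr encodes the receptor of EGF, Hbegf and their relatives. It had 1.70, 2.34, 2.21, 1.70, 2.06 and 2.99 FPKM in MI_vehicle replicates 1 to 6 and 1.33, 1.35, 1.74, 1.46, 2.03 and 1.72 FPKM in sham_vehicle replicates 1 to 6. The groups overlapped, and the log2 fold change of 0.27 ± 0.11 (SE) was called at a limma adjusted p of 0.0411. That call was lost with median-ratio scaling (adjusted p = 0.151), with quantile normalization (0.355) and with no filter (0.0555), and when any 1 of MI_vehicle replicates 2, 3, 5 and 6 or sham_vehicle replicates 1, 2 and 4 was left out (0.0546 to 0.0933 across these limma fits).

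Erbb3 and Erbb4, the neuregulin receptors, pointed the other way. Erbb4 had 0.44, 0.41, 0.57, 0.64, 0.60 and 0.30 FPKM in MI_vehicle replicates 1 to 6 and 0.64, 0.92, 0.89, 0.84, 0.58 and 0.72 FPKM in sham_vehicle replicates 1 to 6. Most infarcted libraries were below most sham libraries, with some overlap, and the exact permutation p was 0.0108 for a difference of -0.24. Erbb3 averaged 1.13 ± 0.22 FPKM in MI_vehicle and 1.39 ± 0.19 FPKM in sham_vehicle (SD, n = 6 each), a log2 fold change of -0.17 ± 0.09 (SE) that was not called (limma adjusted p = 0.122). With median-ratio scaling and quantile normalization it was called, at limma adjusted p-values of 0.0330 and 0.0110. Schwann cells, which use ErbB3, were checked by 11 Schwann cell and neuronal markers. Among 7 tested, 3 were called lower and 1 higher, beside 20.1% and 38.3% of all tested genes. The sums of the 11 markers overlapped at 11.6 to 24.5 FPKM in MI_vehicle and 11.8 to 20.7 FPKM in sham_vehicle.

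The medians of the receptor shares differed between the groups, which was not tested, and shares of a whole depend on each other. Ranges in MI_vehicle and sham_vehicle overlapped for Erbb2 (49.8 to 62.2% and 42.1 to 51.0%) and Erbb4 (3.16 to 9.32% and 7.88 to 13.8%). They did not overlap for Erbb3 (7.68 to 16.5% and 17.7 to 22.4%). Erbb2 was a median of 57.5% of the summed FPKM of the 4 receptors in MI_vehicle and 45.5% in sham_vehicle, while Erbb3 was 13.1% and 19.5% and Erbb4 5.53% and 11.2% in the same groups. The ratio of Erbb2 to Erbb4 had a median of 11.0 in MI_vehicle (5.34 to 18.3) and 4.15 in sham_vehicle (3.42 to 5.34). MI_vehicle replicate 4 held the lowest ratio of its group, and it was about that of the highest sham library.

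**Figure D2:**
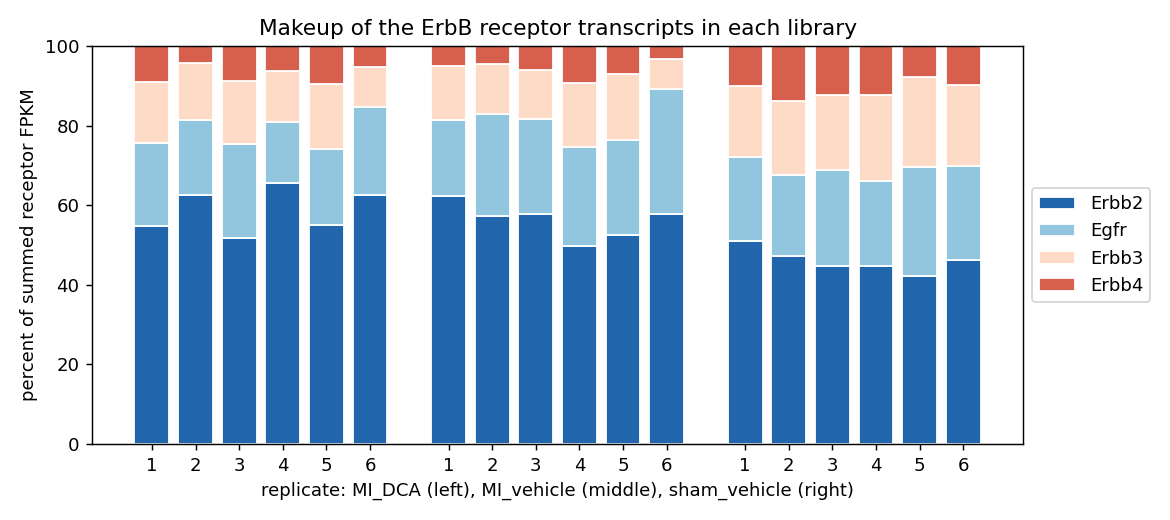
Share of each receptor in the summed FPKM of Egfr, Erbb2, Erbb3 and Erbb4, in percent, in each library; stacked bars run to 100 and groups stand from left to right as MI_DCA, MI_vehicle and sham_vehicle. The Erbb2 share has medians of 58.7%, 57.5% and 45.5% in these groups, and the Erbb4 share 7.46%, 5.53% and 11.2%.

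The genes around the receptors are given for infarction against sham by the number called, beside a median log2 fold change of 0.12 over all tested genes. Of all tested genes 38.3% were called higher and 20.1% lower. Of 12 tested sheddases and partners, the proteases that free the ligands and the proteins that steer them, 11 rose and 1 fell, with a median of 0.52, and 9 rose and 1 fell with either median-ratio scaling or quantile normalization. Adam8, a protease of leukocytes, averaged 17.9 ± 6.2 FPKM in MI_vehicle and 1.07 ± 0.31 FPKM in sham_vehicle, a log2 fold change of 3.10 (limma adjusted p = 1.37e-05, n = 6 each). Adam12, a protease that cleaves Hbegf, averaged 5.55 ± 2.86 and 0.78 ± 0.10 FPKM in the same groups, and Adam9 37.9 ± 13.2 and 16.4 ± 1.7 FPKM. Adam17, the main sheddase of EGFR ligands, differed less, at 11.8 ± 1.0 FPKM in MI_vehicle and 10.0 ± 1.0 FPKM in sham_vehicle (log2 fold change 0.22 ± 0.08, limma adjusted p = 0.0321). The 1 that fell was Timp3, an inhibitor of ADAM17, at -0.74, which is named here after its value was seen.

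The signalling proteins were called in both directions, beside 38.3% of all tested genes called higher and 20.1% lower. Of 18 tested adaptors and proximal transducers 4 rose and 4 fell, with a median of 0.07, but 2 rose and 8 fell with median-ratio scaling or quantile normalization. Shc1, an adaptor of the receptors, had a log2 fold change of 0.53 and Pik3cb, a catalytic subunit of PI3K, of 1.00, while Pik3r1, a regulatory subunit of PI3K, had one of -0.62. Of the 15 genes of the RAS-ERK and AKT cascade 6 rose and 1 fell, with a median of 0.06, and with either of these scalings 3 rose and 3 fell. That count of 6 of 15 is near the background of 38.3% of all tested genes called higher. Among the called genes Nras had a log2 fold change of 0.97, Map2k1 of 0.78 and Hras of 0.40.

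Of 13 tested receptor brakes and turnover genes 7 rose and 2 fell, with a median of 0.28, while with either of these scalings 3 rose and 2 fell. They included the phosphatase genes Ptpn1 at 0.98 and Ptpn12 at 0.76 and Rnf41, which encodes an ubiquitin ligase for ErbB3, at 0.44. Errfi1, which encodes an inducible inhibitor of EGFR, averaged 19.0 ± 7.5 FPKM in MI_vehicle and 11.7 ± 3.2 FPKM in sham_vehicle and was not called (limma adjusted p = 0.0700). Lrig1, which encodes another receptor brake, averaged 8.94 ± 0.66 and 8.86 ± 0.92 FPKM in these groups (limma adjusted p = 0.881). Of 9 tested ERK feedback inhibitors 6 rose and 2 fell, with a median of 0.49, and 5 rose and 3 fell with either scaling. They were led by Dusp5 at 1.22 and Spred3 at 1.17, and Dusp6, the ERK phosphatase, averaged 16.2 ± 3.4 and 9.31 ± 1.59 FPKM in MI_vehicle and sham_vehicle (limma adjusted p = 0.00101, n = 6 each). Of 12 tested ERK-induced transcription factors and early genes 10 rose and 0 fell, with a median of 1.39. With median-ratio scaling 8 rose and 1 fell, and with quantile normalization 9 rose and 1 fell. The list was led by Ier3 at 2.26, Myc at 1.98 and Fos at 1.92. Many signals other than ErbB also induce these genes.

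**Figure D3:**
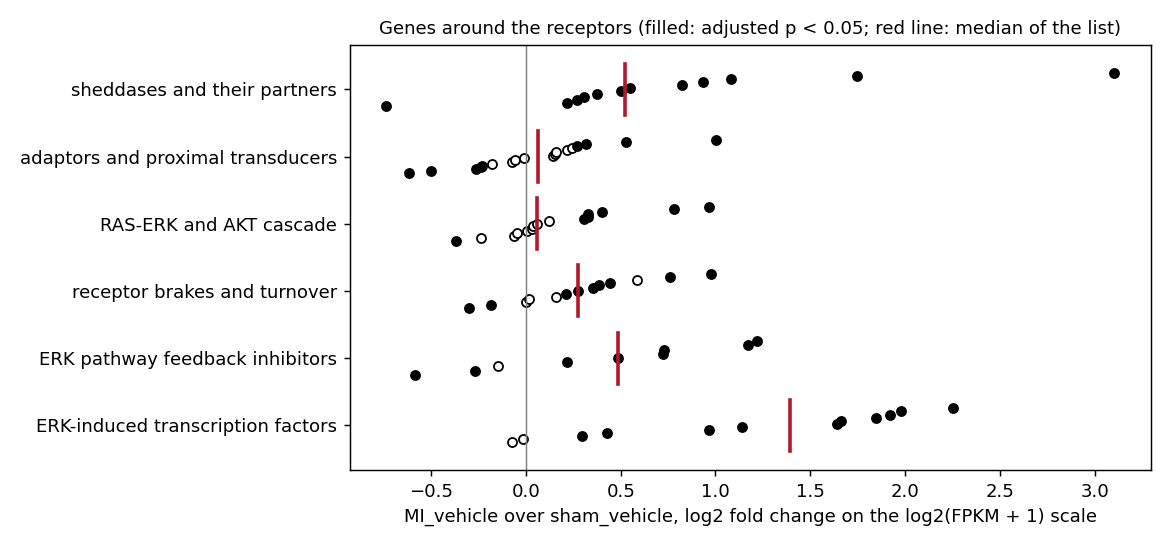
Log2 fold changes, MI_vehicle over sham_vehicle, on the log2(FPKM + 1) scale, for the tested genes of 6 lists; each point is a gene, filled where the limma adjusted p is under 0.05, and red lines are medians of the lists. The medians run from 0.06 for the RAS-ERK and AKT cascade to 1.39 for the ERK-induced transcription factors.

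The next comparison asks what DCA changed in infarcted hearts. No gene of 12004 was called with limma (0.0% of genes, smallest adjusted p = 0.301), and so none of the 5 members in this fit was called. An unadjusted limma p under 0.05 was seen for 1299 genes, 1107 of them lower and 192 higher in MI_DCA. Egfr differed in the more common of these directions. Its values were 1.51, 1.34, 1.57, 1.15, 1.43 and 1.44 FPKM in MI_DCA libraries, against 1.70, 2.34, 2.21, 1.70, 2.06 and 2.99 FPKM in MI_vehicle libraries. Every MI_DCA library was below every MI_vehicle library, a pattern seen with MI_DCA lower in 0.467% of tested genes (56 genes). The means were 1.41 ± 0.15 FPKM in MI_DCA and 2.17 ± 0.48 FPKM in MI_vehicle (SD, n = 6 each). The log2 fold change was -0.39 ± 0.10 (SE), with a limma p of 0.00220 and an adjusted p of 0.407.

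The 4 libraries low in Nppa and Nppb are unevenly spread over the groups, and their part in the Egfr difference was not tested. Among them, Egfr had 1.51, 1.57 and 1.43 FPKM in MI_DCA replicates 1, 3 and 5 and 1.70 FPKM in MI_vehicle replicate 4. Without these 4 libraries the Egfr difference was -0.49 and again not called (limma adjusted p = 0.310). Egfr then was at 1.15 to 1.44 FPKM in 3 MI_DCA libraries and 1.70 to 2.99 FPKM in 5 MI_vehicle libraries. By transcript, the long form of 10208 bases had 1.07 to 1.30 FPKM in MI_DCA and 1.32 to 2.69 FPKM in MI_vehicle libraries. The short form of 2943 bases had 0.06 to 0.50 FPKM in MI_DCA and 0.05 to 0.37 FPKM in MI_vehicle libraries, so its ranges overlapped. Against sham hearts Egfr in MI_DCA was not called, at 1.41 ± 0.15 FPKM in MI_DCA and 1.61 ± 0.27 FPKM in sham_vehicle (SD, n = 6 each; limma adjusted p = 0.338). Beside Egfr, the 12 fibroblast markers summed to 632 to 1342 FPKM in MI_DCA and 908 to 1305 FPKM in MI_vehicle. Their log2 fold changes ran from -0.66 for Col3a1 to 0.66 for Scara5, with a median of -0.19, and none was called. The monocyte and macrophage markers summed to 269 to 826 and 468 to 1161 FPKM in the same groups. The part of these markers in the Egfr difference was not tested.

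Hbegf in MI_DCA libraries fell into 2 sets rather than shifting as a group. It had 8.84, 93.9, 8.92, 89.9, 8.27 and 141 FPKM in MI_DCA replicates 1 to 6, against 77.05, 178, 51.4, 12.2, 73.6 and 120.0 FPKM in MI_vehicle replicates 1 to 6. Replicates 1, 3 and 5 of MI_DCA lay at sham level, and replicates 2, 4 and 6 lay within the range of MI_vehicle. The log2 fold change was -1.05 ± 0.84 (SE; limma adjusted p = 0.616), and it was 0.22, with the sign turned, without the 4 libraries low in Nppa and Nppb. Ereg had 0.12, 1.77, 0.14, 0.78, 0.23 and 1.88 FPKM in MI_DCA replicates 1 to 6, low in the same 3 libraries, and its log2 fold change against MI_vehicle was -0.48 ± 0.30 (SE; limma adjusted p = 0.545), or -0.12 without those 4 libraries. Areg was listed at 0, 0.40, 0, 0.08, 0 and 0.13 FPKM in MI_DCA replicates 1 to 6, with the 3 zeros again in replicates 1, 3 and 5, and its exact permutation p against MI_vehicle was 0.132.

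**Figure D4:**
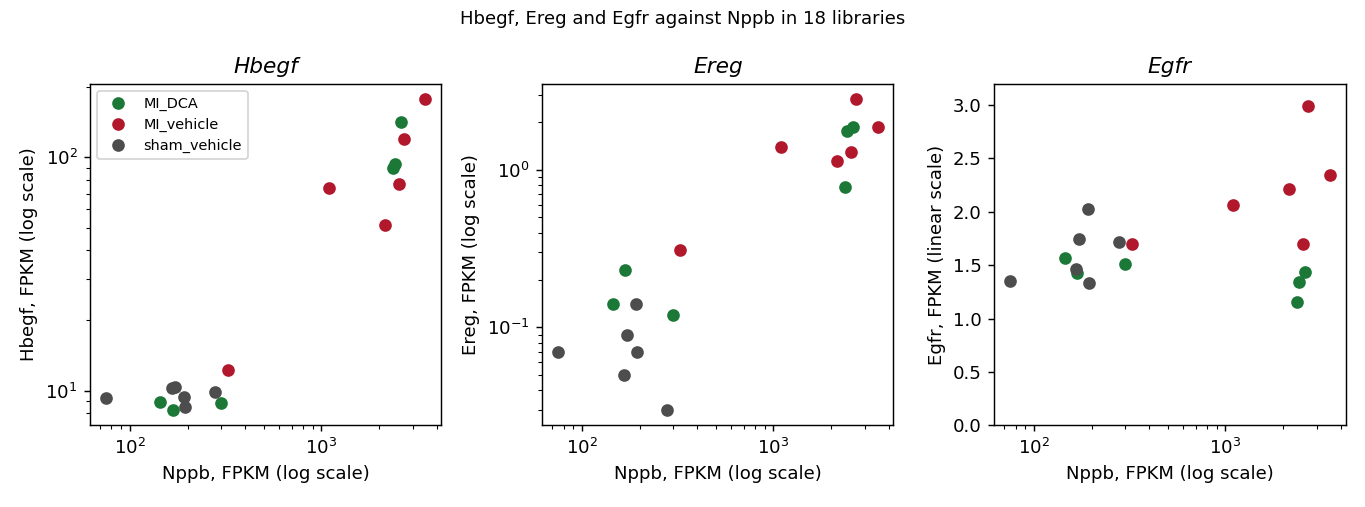
Hbegf, Ereg (log axes) and Egfr (linear axis) in FPKM against Nppb in FPKM on a log axis, with 1 point per library and colours for the 3 groups. Hbegf and Ereg are high in the libraries with Nppb over 1000 FPKM, whereas the MI_DCA points of Egfr lie between 1.15 and 1.57 FPKM at both low and high Nppb.

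The remaining members gave no difference between MI_DCA and MI_vehicle that passed a test. Erbb2 averaged 4.15 ± 0.49 FPKM in MI_DCA and 4.93 ± 0.83 FPKM in MI_vehicle (limma adjusted p = 0.501), and Erbb3 1.00 ± 0.19 FPKM and 1.13 ± 0.22 FPKM (limma adjusted p = 0.706, n = 6 each). Exact permutation p-values were 0.545 for Btc, 0.870 for Erbb4 and 0.942 for Nrg1. Limma array weights, which give less weight to libraries that differ from their group, called 4 members lower in MI_DCA, Hbegf, Ereg, Egfr and Erbb2, at adjusted p-values of 0.00843, 0.00724, 0.00905 and 0.0125. Under that setting 1623 genes were called higher and 3747 lower of 12004 tested, where equal weights called none, so the 4 members stand against a broad change of calls. With equal weights 0 genes of the pathway and marker lists were called. The 16 tested ERK-induced transcription factors had a median log2 fold change of -0.48, or -0.11 without the 4 libraries low in Nppa and Nppb. Beside them, the medians were -0.70 for the 12 monocyte and macrophage markers, -0.73 for the 9 tested neutrophil markers and 0.31 for the 15 cardiomyocyte markers, with -0.06 over all genes. Epgn, a ligand gene outside the 9, averaged 0.25 ± 0.17 FPKM in MI_DCA and 0.09 ± 0.03 FPKM in MI_vehicle (exact permutation p = 0.0238, n = 6 each; limma adjusted p with no filter 0.496).

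DCA-treated infarcted hearts against sham hearts use the same sham libraries as the first comparison, so these comparisons are not independent. Of 11842 tested genes 23.8% were called (15.5% higher, 8.33% lower), and the 1830 higher and 987 lower became 1346 and 1393 with median-ratio scaling. Of the 4 members in this fit Erbb2 was called, with 3.95, 4.50, 3.44, 4.87, 4.09 and 4.06 FPKM in MI_DCA replicates 1 to 6 and 3.22, 3.15, 3.24, 3.05, 3.10 and 3.36 FPKM in sham_vehicle replicates 1 to 6. All MI_DCA libraries were above all sham libraries, the 3 with low natriuretic peptides among them, as was so for 6.31% of tested genes. The log2 fold change was 0.29 ± 0.07 (SE; limma adjusted p = 0.0214).

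Hbegf was 6.10-fold higher in MI_DCA than in sham_vehicle by the means, 58.6 ± 57.6 and 9.61 ± 0.70 FPKM (SD, n = 6 each), but the groups overlapped and it was not called (log2 fold change 1.60 ± 0.68 SE; limma adjusted p = 0.0936). Without MI_DCA replicates 1, 3 and 5 the log2 fold change was 3.34. These 3 libraries hold the lowest Hbegf values of MI_DCA, so leaving any 1 of them out raises the difference by construction. The limma adjusted p then was 0.0402 to 0.0439, which is a description. Over all 12 fits that left out 1 library, the log2 fold change ran from 1.18 to 1.96. Erbb3 averaged 1.00 ± 0.19 FPKM in MI_DCA and 1.39 ± 0.19 FPKM in sham_vehicle and just missed the call (log2 fold change -0.25 ± 0.09 SE; limma adjusted p = 0.0522), which it passed with median-ratio scaling at 0.0335.

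Of the 5 members below the filter, 3 had a small exact permutation p between MI_DCA and sham_vehicle. Ereg was at 0.12 and 0.14 FPKM in MI_DCA replicates 1 and 3, against a highest sham value of 0.14 FPKM, so 2 libraries did not exceed the sham range, and it had an exact permutation p of 0.00649 for a difference of 0.64. Btc had 0.79, 0.83, 1.27, 0.72, 1.24 and 0.77 FPKM in MI_DCA replicates 1 to 6 against 0.51 to 0.73 FPKM in sham_vehicle (exact permutation p = 0.00433). The highest Btc values of the series were in MI_DCA replicates 3 and 5, in which Hbegf was at sham level. Erbb4 averaged 0.51 ± 0.17 FPKM in MI_DCA and 0.77 ± 0.14 FPKM in sham_vehicle (exact permutation p = 0.0303, n = 6 each). With no filter, limma's adjusted p over all genes was 0.0834 for Ereg, 0.0578 for Btc and 0.0731 for Erbb4, so none was called there. Areg and Nrg1 had exact permutation p-values of 0.424 and 0.509.

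**Figure D5:**
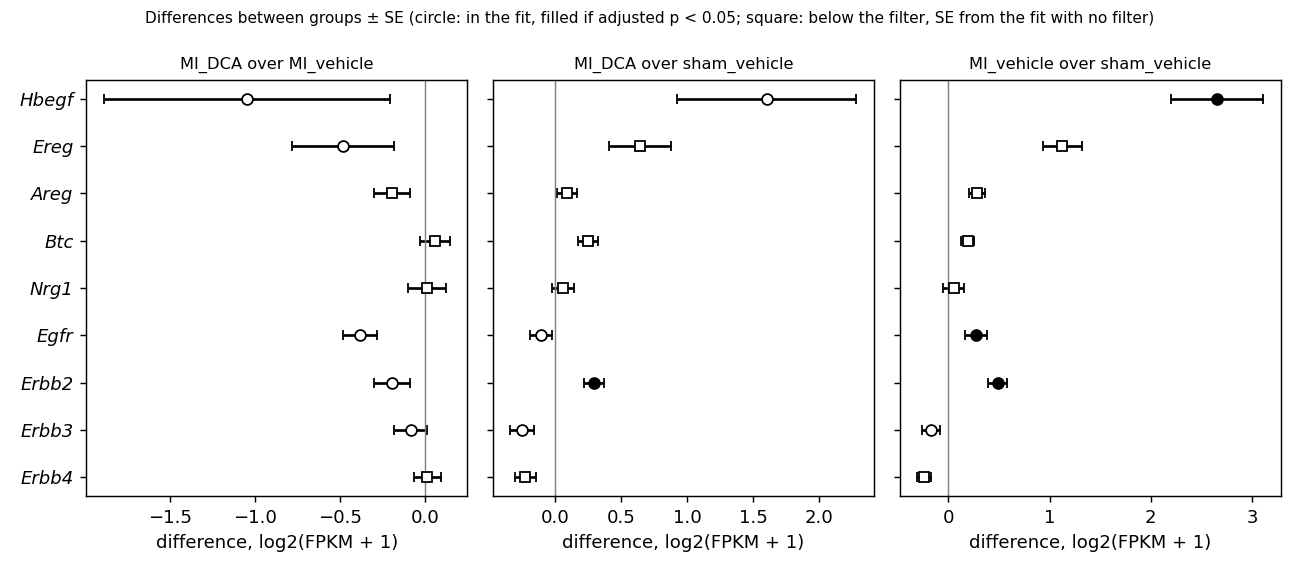
Differences of the 9 members between groups on the log2(FPKM + 1) scale, with SE, in panels for MI_DCA over MI_vehicle, MI_DCA over sham_vehicle and MI_vehicle over sham_vehicle, each with its own axis. Filled circles are called, open circles are not, and squares are members below the filter; no member is filled in the first panel, Erbb2 in the second, and Hbegf, Egfr and Erbb2 in the third.

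The pathway lists were also counted for MI_DCA against sham_vehicle, where 15.5% of all tested genes were called higher and 8.33% lower. Sheddases and partners had 4 higher and 0 lower of 12 tested, with a median of 0.42, ERK-induced transcription factors had 6 higher and 0 lower of 11 tested, with a median of 1.13, and ERK feedback inhibitors had 3 higher and 0 lower of 9 tested, with a median of 0.28, beside a median of 0.05 over all genes. Without MI_DCA replicates 1, 3 and 5, the libraries low in Nppa and Nppb, more genes were called throughout. Of 11570 tested, 3664 were called higher and 2927 lower, against 1830 and 987 of 11842 with all libraries. In that setting the sheddases and the transcription factors each had 8 higher and 1 lower of 11. The feedback inhibitors had 5 higher and 3 lower of 9. Dusp6 averaged 12.9 ± 1.3 FPKM in MI_DCA and 9.31 ± 1.59 FPKM in sham_vehicle (limma adjusted p = 0.0167, n = 6 each). Whether the number of calls differs between the infarcted groups was not tested.

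The genes whose levels ran most like those of the members over the 18 libraries were found by Pearson's r of log2(FPKM + 1) among 12229 genes. It is given only to rank them, since libraries share their group and, for Hbegf and Ereg, fall into a high and a low set. For Hbegf they were Rasl11b, which encodes a RAS-like protein, at 91.6 ± 54.4 FPKM in MI_vehicle and 23.2 ± 2.9 FPKM in sham_vehicle, and Xirp1, which encodes an actin-binding protein of the intercalated disc. For Ereg they were Inava and Fosl1, the gene of the AP-1 factor FRA1, at 4.09 ± 3.03 FPKM in MI_vehicle and 0.03 ± 0.06 FPKM in sham_vehicle (SD, n = 6 each). For Egfr they were Pygl, the liver-type glycogen phosphorylase, and Eif3c, a translation initiation factor subunit. For Erbb2 they were Micall2 and Nubp1, and for Erbb3 Gca and Dpf3. The r was 0.98 or more for the genes of Hbegf and Ereg and 0.80 to 0.82 for those of Egfr.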

How the data were processed

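Per the labels' protocols, coding transcripts were captured (RNA Access) and sequenced as single reads of 50 bases. The deposited values are FPKM per gene and per transcript, rounded by the authors to 2 decimals. The unit is not named in the header and was settled from the values: library sums ran from 516274 to 584701, whereas sums of value times length had a coefficient of variation of 0.713%. Bowtie2 2.2.5, RSEM 1.2.12, DESeq2 1.4.5 and GRCm38.p6 are named in the submitters' processing notes without their roles. The files hold no counts, so depth was estimated from the spacing of low values of 515 genes, of which 61.8 to 81.6% lay within 0.1 of a whole read, and counting error is not given.

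Genes with at least 1 FPKM in at least 6 of the 12 libraries compared were tested on log2(FPKM + 1) by limma 3.58.1 (R 4.3.3) with its trend option, each comparison on its own 2 groups and without covariates. Calls are genes whose p, adjusted over all tested genes after Benjamini and Hochberg, lay under 0.05. Fold changes on this scale understate the change of low genes. Members below the filter had two-sided exact permutation tests, 14 in all, with p not adjusted. The fit was tested on simulated data with 200 changed genes and noise drawn for each gene on its own. At a log2 fold change of 1 it recovered 92%, 86% and 94% of changed genes for MI_vehicle against sham_vehicle (11969 genes), MI_DCA against MI_vehicle (12004) and MI_DCA against sham_vehicle (11842). At 0.5 it recovered 54%, 36% and 60% in the same order. Genes of the real libraries can vary together, as in the 2 sets of MI_DCA libraries, so these shares may overstate what the real fits could find.

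The members and gene lists were chosen with earlier results of these data known. Named genes are all members, the other ligands, up to 3 called genes with the largest change per list, Errfi1, Lrig1, Adam17 and Dusp6, and the 2 genes most like each member above the filter. Other scalings, filters, weights and left-out libraries were tried. Sequences and coordinates are RefSeq's for GRCm38.p6.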

Additional observations from a re-analysis of the deposited data

Results flagged for a closer look

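Areg in MI_DCA replicate 2 stood apart from the rest of its group. It was 0.4 FPKM there, about 6 reads by the depth estimate, against 0.13 FPKM in the next highest MI_DCA library and 0 in 3 of the 6. The gap was 0.675 of the range of the group, over Dixon's limit for 6 values. It was the 1 group marked of 27 screened, and chance marks about 1 in 20. This is the highest Areg value of the group with the lower mean, so leaving it out widens the difference from MI_vehicle by construction. The Areg difference between MI_DCA and MI_vehicle was -0.19 with all libraries on the log2(FPKM + 1) scale (exact permutation p = 0.132). Without MI_DCA replicate 2 it was -0.26 (exact permutation p = 0.0216), which is a description.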

How the results depend on the processing

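Hbegf, Ereg, Areg and Erbb2 kept their direction and their side of the threshold for MI_vehicle over sham_vehicle under the alternatives run. Over the alternatives for single members, 495 results kept both, 20 passed the threshold where the reported value had not, 33 no longer passed and 15 changed sign. With no filter, or a filter of 0.1 FPKM, 6 members were called for MI_vehicle over sham_vehicle in place of 3, because more members were tested, and leaving out 1 library gave 2 to 3 members, 4017 to 4979 genes higher and 2038 to 2740 lower. Quantile normalization called 3736 genes lower, against 2408. For MI_DCA over MI_vehicle, array weights called 4 members, 1623 genes higher and 3747 lower, against 0. Leaving out 1 library gave 0 members, 0 genes higher and 0 to 1 lower there. For MI_DCA over sham_vehicle, 1 member was called, and 2 with a filter of 0.1 FPKM, median-ratio scaling, quantile normalization or all 18 libraries in 1 fit. Leaving out 1 library gave 1 to 3 members, 740 to 2596 genes higher and 315 to 1489 lower, and quantile normalization and array weights called 1556 and 565 genes lower, against 987. Of the members below the filter, the fit with no filter called 0 for MI_DCA over sham_vehicle, where 3 had an exact permutation p under 0.05. The same-numbered libraries do not pair by the labels or by their deviations, which correlated at -0.44 to 0.69. With a replicate block, 0 members, 1124 genes higher and 572 lower were called for MI_DCA over sham_vehicle, where Erbb2 had an adjusted p of 0.0564. Without the libraries low in Nppa and Nppb, chosen after seeing the data, 3 members, 3664 genes higher and 2927 lower were called for MI_DCA over sham_vehicle. For MI_DCA over MI_vehicle the sign turned without them for Hbegf (0.22), Btc (-0.0813) and Erbb4 (-0.0969), and with quantile normalization for Erbb3 (0.0068), none of which was called. Leaving out 1 library gave -0.0262 to 0.0545 for Erbb4 and -0.0642 to 0.0700 for Nrg1 in that comparison, and -0.0101 to 0.12 for Nrg1 for MI_vehicle over sham_vehicle, where quantile normalization gave -0.0015. The causes were not tested. Members with values under 1 FPKM rest on few reads.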
